A study of Drosophila melanogaster with 4 samples.

Results

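First exon bins are the pieces of sequence at the 5′ ends of genes over which reads were counted to measure exon use, and they report on which promoter a gene was read from. Exon bins are the segments that result when the exons of all annotated transcripts of a gene are cut at every exon edge. A member is the 5′-most listed bin of a gene that has at least 3 listed bins, with a mean normalized count of at least 50 over the 4 libraries. The deposited table lists 46187 bins of 9639 genes, and 6067 genes have at least 3 of them. In 3312 of these genes the first bin reached the minimum mean and in 2755 it did not. The members nearest to the minimum are Tep4 (mean 50.07), beta4GalNAcTA (50.12) and Tim9a (50.12) inside it and CG32647 (49.998), CG7849 (49.96) and CG4022 (49.73) outside it. The rule used position and mean count and no difference between genotypes. As the mean is taken over both genotypes, a bin could reach the minimum through the counts of either genotype alone.

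The libraries were made from the indirect flight muscles (IFM) of Drosophila melanogaster, whose fibrillar fibres drive the wing stroke, dissected from adults at 1 d after eclosion that were kept at 27 °C. The control genotype was w1118, a white-eyed laboratory strain, and the mutant was bru1M3, with 2 libraries per genotype, each from a pool of flies. bru1M3 is a single CRISPR allele in which a cassette with its own splice acceptor sits in the 3′ part of bru1, so that all isoforms end early and the last RNA-binding domain is incomplete. The flies are flightless and their myofibrils break down, so the dissected tissue differs between genotypes in more than the allele. The poly-A selected, strand-specific libraries gave 30384053 and 34105524 counted reads in w1118 and 34039049 and 30937694 in bru1M3, of which 8326712, 12395680, 19999967 and 21962285 came from nuclear genes. Nothing in the labels says that the 2 libraries of a genotype came from separate cultures, so p-values measure the spread between these libraries.

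A promoter fixes where transcription starts, and a gene with several promoters makes transcripts that differ in their first exon and often in the untranslated leader or the beginning of the protein. Some muscle genes of Drosophila use separate promoters in different muscle types or stages. Bruno 1 is a CELF family RNA-binding protein that acts on splicing in the nucleus and on translation in the germ line. Because the reads of a gene are shared out over its exons, the use of a first exon is read relative to how often the exons behind it are included.

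The measurement per bin is the exon use that the authors' DEXSeq fit gives for each genotype. It states how much of a gene's reads a bin holds, compared with the gene's remaining bins, on a variance-stabilized scale that runs roughly between the square root and the logarithm of a count. A difference on this scale is not a fold change. There is 1 value per genotype, so bin use has no spread between replicates and no test here, and a change is called past the threshold where bru1M3 minus w1118 is at or beyond 1.97 in either direction. This is the 95th percentile of the absolute change over the 28260 bins of the same kind of gene with a mean of at least 50, of which 5.0% are past it by construction, 2.15% used more in bru1M3 and 2.85% used less.

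The first listed bin of bru1 itself was used more in the mutant, and the bins behind the cassette were used less. Over the whole gene, bru1 had 1807 and 1386 normalized counts in w1118 and 10618 and 9976 in bru1M3, so the groups did not overlap. The log2 fold change was 2.7 ± 0.19 (SE, limma, adjusted p = 0.00019). The first listed bin lies at 2L, 12201326-12201771, on the plus strand, at 1 of the gene's 6 annotated starts and 26322 bases inside the outermost one. Its use was 12.60 in w1118 and 15.95 in bru1M3. The bins from the 13th listed on, which begin at 12310682, changed by -3.84 to -10.37, all of them used less. The fall behind the insertion checks the labels of both genotypes. Use is relative within a gene, so the change of 3.35 in the first bin is measured against a gene in which these 7 bins held a smaller share.

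Over all genes, first bins were a little higher in use in the mutant and last bins lower. The median change of the 3312 first bins was 0.19, with quartiles of -0.30 and 0.66, and 61.7% were above 0. The median was 0.02 over all 28260 bins, 0.13 over 3699 second bins, 0.06 over 20242 bins between the first and the last, and -0.39 over 4706 last bins. The use of a gene's bins thus tilted from the 3′ towards the 5′ end in bru1M3. Whether RNA integrity or library preparation had a part in this tilt was not tested.

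**Figure D1:**
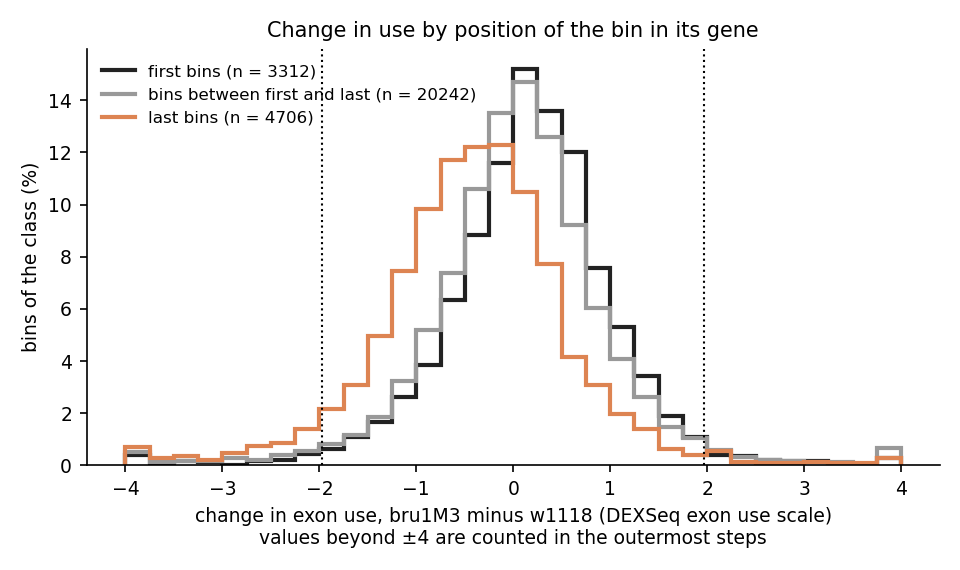
Change in exon use, bru1M3 minus w1118, in steps of 0.25, as a percentage of the 3312 first bins (black), the 20242 bins between first and last (grey) and the 4706 last bins (orange). Dotted lines mark 1.97 in either direction, and the curve of the first bins sits to the right of that of the last bins, with medians of 0.19 and -0.39.

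Past the threshold were 63 first bins used more (1.90%, against 2.15% of all bins) and 58 used less (1.75%, against 2.85%). Together these are 3.65% of first bins, against 2.49% of second bins, 4.83% of the bins between first and last and 6.67% of last bins. On this scale, large changes were more frequent among first than among second bins and less frequent than over all bins. With the log2 ratio of use as the measure and a threshold of 0.347, 91 first bins (2.75%) were used more and 68 (2.05%) less. This threshold is the same percentile, so 5.0% of all bins are past it by construction, and first bins came close to that share. The shares thus depended on the measure of change. With the changes of first bins centred on their own median, a choice made after seeing the data, 51 were used more and 72 less.

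Changed first bins were more frequent in genes with more annotated transcript starts. Starts more than 50 bases apart were counted as separate, and 3291 of the 3312 genes were found in the annotation. In the 2104 genes with 1 start, 15 first bins were used more and 18 less, which is 1.57% past the threshold. In the 1187 genes with more than 1 start, 48 were used more and 40 less, which is 7.41%. The share climbed from 5.34% of 787 genes with 2 starts to 10.2% of 245 genes with 3 and 13.5% of 155 genes with 4 or more. With starts counted as separate only beyond 200 bases, the shares were 1.81% and 8.12%.

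**Figure D2:**
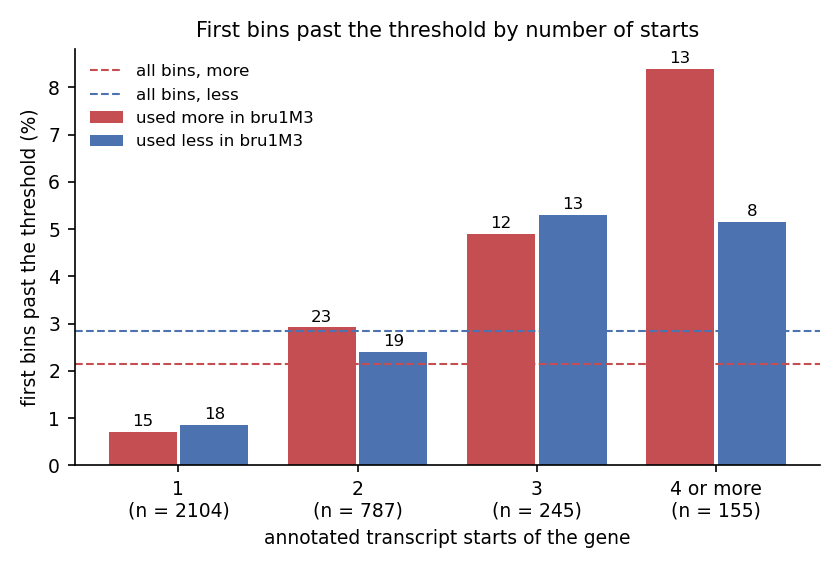
Percentage of first bins past the threshold in genes with 1, 2, 3 and 4 or more annotated starts, used more (red bars) or less (blue bars) in bru1M3, with the number of bins above each bar. Dashed lines give 2.15% and 2.85%, the shares of all bins, and both bars of the genes with 1 start lie below 1% while those of the genes with 3 or more starts lie above both dashed lines.

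The same split appeared in how many of a gene's transcripts contain the first bin. A bin contained in all transcripts was past the threshold in 1.57% of 2362 cases, and a bin contained in part of them in 8.84% of 950. Where the first bin's 5′ end was within 50 bases of an annotated start, which held for 3158 of the 3291, 3.55% were past the threshold. For the other 133 the share was 6.77%. In 556 genes an annotated start lies further out than the first listed bin, and 4.86% of these were past the threshold, against 3.44% of the 2735 that begin at the outermost start.

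By chromosome, the share past the threshold was 13.5% on the small chromosome 4, where it rests on 5 of 37 first bins, and 4.25% on 2L, 3.89% on 2R, 3.03% on 3L, 3.05% on 3R and 3.73% on X. First bins had a median length of 256 bases, and the share was 3.62% among the 828 shortest (up to 150 bases) and 3.14% among the 827 longest (from 503 bases). Among the 828 with the lowest mean counts it was 4.95%, and among the 828 with the highest it was 3.86%.

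The largest rises in use included a pair of genes that are read away from each other. Rack1, a scaffold protein of the small ribosomal subunit, had a first bin at 2L, 7827247-7827315 (minus strand) that belongs to 1 of its 4 transcripts. Its use was 4.02 in w1118 and 12.65 in bru1M3, a change of 8.63. mts, the catalytic subunit of protein phosphatase 2A, begins 334 bases away on the plus strand, and its first bin at 7827650-7827792 belongs to 1 of 3 transcripts. Its use was 7.66 in w1118 and 13.66 in bru1M3, a change of 6.0. Both are extended 5′ ends, since the second bin of each gene directly adjoins the first and is itself an annotated start. The second bin changed by -2.98 in Rack1 and by 0.46 in mts. Over the whole gene, Rack1 had 12815 and 12587 normalized counts in w1118 and 13599 and 13588 in bru1M3, a log2 fold change of 0.10 ± 0.17 (SE, limma, adjusted p = 0.722), and equal totals of nuclear reads turned its sign to -0.03. mts had 2697 and 3015 in w1118 and 7631 and 7499 in bru1M3, and it rose by a log2 fold change of 1.41 ± 0.16 (SE, limma, adjusted p = 0.00122).

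A second cluster of changed first bins lies on 2R. CG3500 (23357392-23357565, minus strand) had a use of 0.06 in w1118 and 6.22 in bru1M3, so this bin reached the minimum mean through bru1M3. CG34423, 1046 bases away on the plus strand, had 20.05 in w1118 and 16.63 in bru1M3, and Mthfs, a folate-metabolism enzyme that begins 476 bases further on the same strand, had 3.52 and 7.94. The 3 neighbours changed by 6.16, -3.42 and 4.43. The gene levels of CG3500 were 44.2 and 23.0 in w1118 and 184 and 158 in bru1M3, and the groups did not overlap (log2 fold change 2.38 ± 0.40 SE, limma, adjusted p = 0.00629). Those of Mthfs were 56.2 and 36.2 against 214 and 118 (1.80 ± 0.40 SE, limma, adjusted p = 0.0200), a call that was lost without bru1M3 replicate 1 (adjusted p = 0.130). The first bin had a mean count of 102 in CG3500 and 183 in Mthfs, against 102 and 106 for the whole gene in the gene-level table, and the first bin of CG34423 overlaps a gene on the other strand.

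The change ran beyond the first bin in Argk, arginine kinase, which buffers ATP in insect muscle. Argk had a first bin at 3L, 9065708-9066027 (minus strand) with a use of 11.45 in w1118 and 15.82 in bru1M3. The next bins downstream, which belong to the same upstream transcripts, changed by 4.14 and 4.87. The bin of a downstream start, 8446 bases away, changed by -2.29, from 17.26 to 14.97, and the bin that carries most of the gene's reads by -2.64. At the gene level Argk had 25107 and 20755 normalized counts in w1118 and 8122 and 10010 in bru1M3, and fell by 1.34 on the log2 scale (± 0.20 SE, limma, adjusted p = 0.00446). The first bins thus gained weight in a gene whose total was lower in both mutant libraries.

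Shab, a voltage-gated potassium channel, had a first bin at 3L, 2895017-2895094 that was nearly unused in w1118 (0.07) and reached 5.11 in bru1M3. Its mean count of 51.8 was just above the minimum, which it reached through bru1M3. The gene level of Shab was 584 and 780 in w1118 and 2855 and 3129 in bru1M3 (log2 fold change 2.15 ± 0.19 SE, limma, adjusted p = 0.00047). Npl4, a cofactor of the segregase p97, had a first bin whose use was 4.69 in w1118 and 8.59 in bru1M3. The bin of its other start, 917 bases downstream and with a mean count of 3093, differed by -0.08. The upstream start of Npl4 is therefore a minor one, with a mean count of 136. Npl4 as a whole had 8916 and 7436 against 16545 and 15232 normalized counts (0.96 ± 0.19 SE, limma, adjusted p = 0.0113), which was not called without w1118 replicate 2 (adjusted p = 0.0878).

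Of the 10 largest falls, 8 were in genes whose total rose. ImpL2, a secreted antagonist of insulin-like peptides, had a first bin at 3L, 4235903-4236147 (minus strand) with a use of 12.30 in w1118 and 5.49 in bru1M3. The bin of its next start, 8845 bases downstream, went the other way, from 18.44 to 21.05. The gene had 1002 and 1237 normalized counts in w1118 and 9520 and 9298 in bru1M3, a rise of 3.08 ± 0.17 on the log2 scale (SE, limma, adjusted p = 0.00011). The mean count was 114 for the first bin and 6417 for the downstream one.

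Picot, a predicted phosphate cotransporter, was divided between an upstream and a downstream start. Its first bin at 2R, 16667552-16667675 (minus strand) had a use of 12.05 in w1118 and 6.81 in bru1M3, and all 4 upstream bins changed by -2.69 to -6.29. The bin of the downstream start, 8517 bases away, rose in use from 10.51 to 16.86, and the 4 bins that follow it changed by 1.69 to 2.82. The gene's total went from 774 and 577 normalized counts in w1118 to 14012 and 12750 in bru1M3 (log2 fold change 4.32 ± 0.19 SE, limma, adjusted p = 7.4e-05). KrT95D had the same layout, with changes of -3.86 to -4.34 in its 4 most upstream bins and of 2.51 in the bin of a start 25133 bases downstream. Its gene level was 1555 and 1278 in w1118 and 6187 and 5388 in bru1M3 (2.03 ± 0.18 SE, limma, adjusted p = 0.00041).

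In wdp, a leucine-rich repeat proteoglycan, the shares of 2 starts changed by almost equal amounts in opposite directions. Its first bin at 2R, 22311696-22311937 had a use of 12.74 in w1118 and 8.71 in bru1M3, while the bin of the other start, 631 bases downstream, had 7.49 and 11.53. The changes were -4.03 and 4.04. The gene had 1857 and 1475 normalized counts in w1118 and 3476 and 3867 in bru1M3, a rise of 1.15 ± 0.18 on the log2 scale (SE, limma, adjusted p = 0.00504). In 14-3-3zeta, an adaptor that binds phosphorylated proteins, the first bin (2R, 10099677-10099738) and the bin of another start 1359 bases downstream were both used less, by -4.31 and -5.52. Its total hardly differed, with 11404 and 12365 against 12335 and 12686 (0.08 ± 0.17 SE, limma, adjusted p = 0.790).

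**Figure D3:**
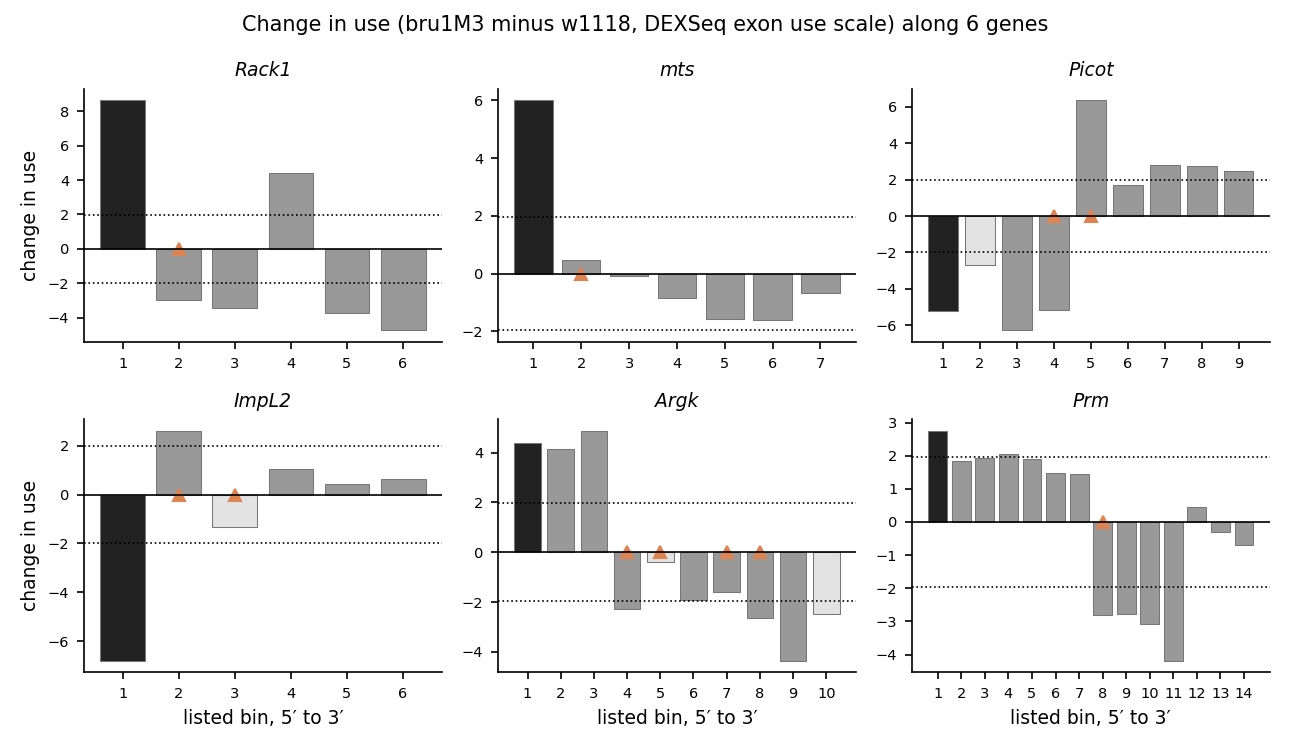
Change in exon use along 6 genes, with the listed bins of each gene in order from 5′ to 3′. The first bin is black, other bins are grey, bins with a mean count under 50 are pale, orange triangles mark bins at a further annotated start, and dotted lines mark 1.97 in either direction. In Picot, Argk and Prm the sign turns at a downstream start, whereas in mts the change past the threshold is that of the first bin (6.0).

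Genes of the sarcomere, the contractile unit of the myofibril, held 9 changed first bins among the 32 that reached the minimum mean, from a list of 44 (3.65% of all first bins were changed). The 4 used more were those of Tm2, Mlp60A, Prm and Mlp84B, and the 5 used less those of sals, tmod, cher, Tm1 and bt. That of bt was at the edge of the threshold, with a change of -1.98. Those of Mlp60A, tmod, cher and Tm1 had low mean counts (70.8, 74.9, 66.8 and 83.2). The median change of the 32 was 0.22, against 0.19 over all first bins. Several of these genes have many annotated starts, and the list was not compared with genes of equal number of starts.

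Prm encodes paramyosin and miniparamyosin, proteins of the thick filament core, of which miniparamyosin is made from an internal promoter. Its first bin at 3L, 8744963-8745310 (minus strand) had a use of 20.63 in w1118 and 23.38 in bru1M3, and the 7 most upstream bins changed by 1.45 to 2.75. The bin at the internal start, 6403 bases downstream, changed by -2.80, from 25.21 to 22.41, and the 3 bins after it by -2.77 to -4.19. The share of Prm reads was thus lower at the internal start and higher at the upstream one. The gene had 57120 and 61603 normalized counts in w1118 and 132676 and 159251 in bru1M3 (log2 fold change 1.29 ± 0.27 SE, limma, adjusted p = 0.0164). That call was lost without w1118 replicate 1 (adjusted p = 0.154) or w1118 replicate 2 (adjusted p = 0.118).

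Tm2, a muscle tropomyosin of the thin filament, had a first bin of 52 bases at 3R, 15310193-15310244 that belongs to 1 of its 6 transcripts. Its use was 9.75 in w1118 and 14.27 in bru1M3, and the adjoining second bin, which holds most reads from that start, changed by 1.12. The gene level was 98848 and 98576 against 106098 and 144275 (0.33 ± 0.30 SE, limma, adjusted p = 0.476). In Tm1, the other tropomyosin gene, the first bin had a mean count of 83.2 and a use of 8.84 in w1118 and 6.71 in bru1M3. The bins that carry most of its reads near the 5′ end changed by 0.83 and 0.88. The changed 5′ ends of both tropomyosin genes are therefore minor ones.

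Mlp84B and Mlp60A are LIM-domain proteins of muscle. The first bin of Mlp84B had a use of 9.18 in w1118 and 11.30 in bru1M3, while the bin of its second start went from 8.55 to 4.36. Mlp84B as a whole had 216 and 544 normalized counts in w1118 and 5467 and 4296 in bru1M3, a rise of 3.82 ± 0.39 on the log2 scale (SE, limma, adjusted p = 0.00077). In Mlp60A the first bin had 3.58 and 6.99, the bin of its other start 6.19 and 8.23, and the gene level overlapped between the genotypes, with 19130 and 21666 against 11464 and 25711. Its 7 most upstream bins changed by 0.44 to 5.72, and the 6 most downstream ones changed by -1.11 to -3.30.

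The sarcomere first bins used less included those of sals, tmod, cher and bt. sals, which sets thin filament length at the pointed end, had a use of 14.75 in w1118 and 10.92 in bru1M3 at 3R, 11451632-11451791. Bins 10 and 9 of the gene, the next with a mean over 50, changed by 6.96 and 7.63 in the other direction. tmod, the cap of the pointed end, had 8.79 and 6.0 in its first listed bin and 19.49 and 21.07 in the bin of a start 5840 bases downstream, and cher, the fly filamin, had 8.47 and 5.95. Both sals (2398 and 2951 against 7760 and 7711, log2 fold change 1.54 ± 0.17 SE, limma, adjusted p = 0.00115) and tmod (6409 and 6033 against 17096 and 17575, 1.48 ± 0.17 SE, limma, adjusted p = 0.00121) rose as whole genes. cher had 897 and 838 against 1500 and 1981 normalized counts (0.99 ± 0.19 SE, limma, adjusted p = 0.0117). bt, projectin, the elastic filament of the sarcomere, had a first bin on chromosome 4 with a use of 12.88 in w1118 and 10.90 in bru1M3, and gene levels of 47271 and 55241 against 94368 and 146037 (1.20 ± 0.31 SE, limma, adjusted p = 0.0314). The call of bt was lost without w1118 replicate 1 (adjusted p = 0.201) or w1118 replicate 2 (adjusted p = 0.114), and with the replicate number as a block (adjusted p = 0.0501).

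Over all first bins 3.65% were past the threshold, and the other lists had the following counts. Of 8 first bins in genes of calcium handling, 3 were used more, in the calcium pump SERCA, the junctophilin jp and Shab. Of 18 in genes of adhesion and the cytoskeleton, 1 was used less, in mys, the beta integrin of muscle attachment. In genes of energy metabolism it was 1 of 16 (Treh, used more), in RNA-binding proteins 1 of 12 (bru1) and in muscle transcription factors 1 of 6 (sd, used more). The median changes were 1.04, -0.38, 1.01, 0.40 and 0.61 in these lists, against 0.19 over all first bins.

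To see whether another start of the same gene moved the other way, each first bin was set beside the bin of another annotated start that shares no transcript with it and has a mean of at least 50. This was possible in 221 genes, at a median distance of 2297 bases. Exon use is relative within a gene, so opposite signs arise in part by construction, and they occurred in 112 of the 177 genes with a first bin within the threshold (63.3%). Among the 23 first bins used less, the other start had the opposite sign in 18 and was itself used more past the threshold in 11. Among the 21 used more it was opposite in 13 and used less past the threshold in 8. The median change at the other start was 1.59 in the former and -0.78 in the latter, against -0.05 in the 177.

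**Figure D4:**
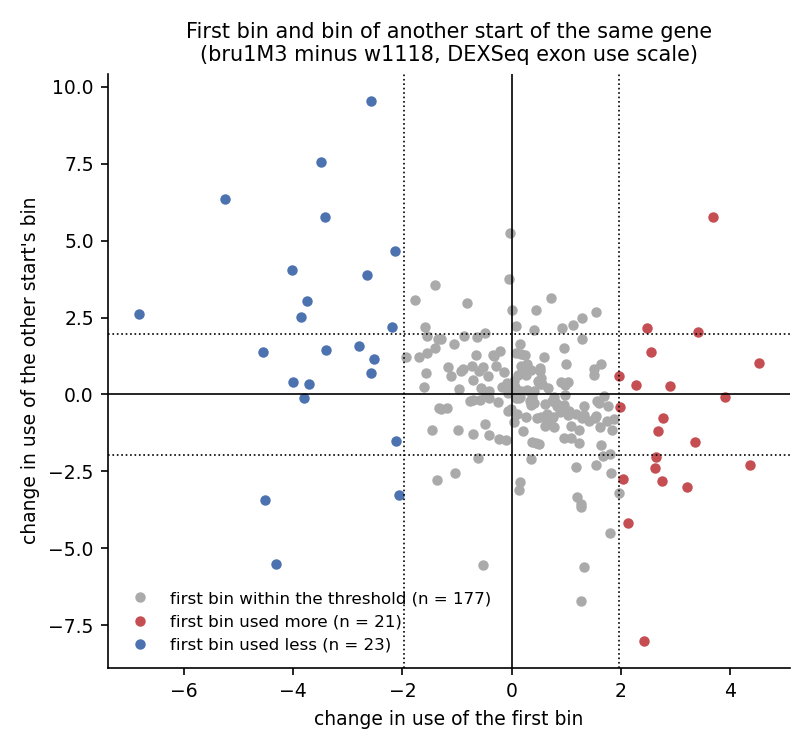
Change in use of the first bin (horizontal) and of the bin of another start of the same gene (vertical) in 221 genes, bru1M3 minus w1118. Points are coloured by whether the first bin was used more (red, n = 21), used less (blue, n = 23) or within the threshold (grey), and dotted lines mark 1.97 in either direction. Of the blue points, 11 lie above the upper line, and of the red points 8 lie below the lower line.

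In 11 genes the first bin was used less and the other start more, both past the threshold. These were CG34417, CG34423, CG5001, Gdap2, ImpL2, KrT95D, Mbs, Nedd4, Picot, Tak1 and wdp. All 11 were higher as whole genes (limma, adjusted p under 0.05), with log2 fold changes from 1.15 (wdp) to 4.32 (Picot). Use is a share of the gene, so a lower share at the first start need not mean fewer transcripts from it. The first bins of CG34423 and Nedd4 have an annotated overlap with another gene. The following examples were chosen after their values were seen. In Mbs, the targeting subunit of myosin phosphatase, the first bin went from 10.63 to 8.05 and the bin of a start 21407 bases downstream from 8.92 to 18.47, a change of 9.55. In Tak1, a kinase of innate immune and JNK signalling, the first bin went from 12.11 to 8.62 and the other start from 7.31 to 14.85. In both genes the downstream start held the larger mean count, 2350 in Mbs and 1207 in Tak1. The gene levels were 2975 and 2187 against 21877 and 24388 in Mbs (log2 fold change 3.18 ± 0.20 SE, limma, adjusted p = 0.000156), and 281 and 253 against 2484 and 2380 in Tak1 (3.18 ± 0.17 SE, limma, adjusted p = 0.000102).

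In 8 genes the first bin was used more and the other start less, both past the threshold. These were Argk, CG10365, Kcmf1, Mlp84B, NTPase, Prm, cert and jp. As whole genes they were mixed (limma, adjusted p under 0.05). Argk was lower, Mlp84B, Prm and cert were higher, and CG10365, Kcmf1, NTPase and jp were not called. In cert, a ceramide transfer protein, the first bin went from 8.40 to 10.83 and the bin of a start 3401 bases downstream from 19.10 to 11.10, a change of -8.01. In jp, which couples the plasma membrane to the sarcoplasmic reticulum, the first bin went from 12.69 to 15.89. The other start of jp went from 19.38 to 16.38, and the first bin of jp has an annotated overlap with another gene. In SERCA, Mlp60A and Rpp25 both starts were used more past the threshold, and in 14-3-3zeta, Drat and mib2 both were used less.

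First bins that overlap an exon of another gene were past the threshold more often. An overlap was annotated for 254 first bins, of which 9.45% were past it, against 3.17% of the 3058 without one. Without the overlapping bins, 54 first bins were used more and 43 less, and the share was 1.56% in genes with 1 start and 6.16% in genes with more. The libraries keep the strand, but whether the bin counts were made with it is not given in the sources used here, and without it reads of a gene and of an overlapping gene on the other strand cannot be told apart.

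The counts of several named first bins exceeded those of their gene. The gene-level table holds fewer normalized counts than the first bin alone in 566 of 3300 genes, and fewer than 50% of it in 92. Among the 23 changed first bins with an overlap and a gene value, 8 had a mean over 2 times the gene's, against 2 of the 97 changed first bins with none. TppII, tripeptidyl peptidase II, is the largest case of the named genes by count: its first bin at 2R, 13158767-13159141 (minus strand) had a mean of 15639, the gene 2037. The bin's use was 30.19 in w1118 and 23.71 in bru1M3. It overlaps ND-MWFE, a subunit of respiratory complex I on the other strand, which had 8880 and 9158 normalized counts in w1118 and 4329 and 5951 in bru1M3. TppII itself had 883 and 959 against 3299 and 3006 (log2 fold change 1.77 ± 0.16 SE, limma, adjusted p = 0.00048).

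CCAP, the gene of crustacean cardioactive peptide, a neuropeptide, had the largest rise in use of all first bins, from 7.23 to 16.02 at 3R, 22701550-22702084. This bin had a mean of 605, the gene 65.3. It overlaps CG6972 on the other strand, which had 602 and 703 normalized counts in w1118 and 6288 and 4576 in bru1M3. CCAP as a gene had 11.9 and 152 in w1118 and 40.9 and 56.1 in bru1M3, so the groups overlapped (log2 fold change 0.14 ± 1.02 SE, limma, adjusted p = 0.939). Its sign depended on which w1118 library was kept, with -1.65 without w1118 replicate 1 (adjusted p = 0.0190) and 1.92 without w1118 replicate 2 (adjusted p = 0.0339). Neuron markers summed to 4141 and 6182 in w1118 and 1567 and 2403 in bru1M3, and their part in the gene level of CCAP was not tested.

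Rpp25, a subunit of ribonuclease P, had a first bin with a use of 3.66 in w1118 and 7.35 in bru1M3 and a mean of 175, the gene 40.4. Its partner on the other strand, CG17266, had 6.81 and 1.1 against 451 and 291 normalized counts. The same layout held for falls. The first bin of mib2, a ubiquitin ligase needed for muscle integrity, went from 13.28 to 8.76 and overlaps CG31800 (671 and 563 against 338 and 355), and that of CG43110 went from 8.85 to 4.73 and overlaps NT5E-2 (619 and 479 against 200 and 134). In DnaJ-H, an Hsp40 cochaperone whose first bin went from 11.32 to 6.76 and overlaps Sirt1, the gene itself rose by a log2 fold change of 2.43 ± 0.20 (SE, limma, adjusted p = 0.00031). The first bin of Rpn9, a subunit of the proteasome lid, went from 10.32 to 6.32, and the gene rose by 2.56 ± 0.24 on the log2 scale (SE, limma, adjusted p = 0.00053).

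Of the 23 changed first bins with an overlap and a gene value, 17 were compared with a partner, with both genes fitted. In all 17 the difference between the partner's and the gene's own log2 fold change had the sign of the change in use. This was so in 63 of 103 overlapping first bins within the threshold (61.2%). In DnaJ-H, Tdc1, rempA and sni the partner's own log2 fold change was positive (0.31, 0.61, 2.50 and 0.02), though the bin was used less. There the sign came from the larger rise of the gene itself. In the others of the 17 the partner's own fold change had the sign of the bin. The 17 were selected by their change in use, and bins and genes were measured in the same libraries, so the 2 are not independent. Whether reads of the partners had a part in the changes was not tested. Among the 10 largest rises, CCAP and Rpp25 have an annotated overlap, and among the 10 largest falls TppII, DnaJ-H, mib2 and CG43110 do. Rack1, mts, ImpL2, Picot, Argk and the 9 sarcomere genes have none.

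Genes with a changed first bin were changed as a whole more often than others, mainly upwards. Of all 9228 genes fitted, 22.2% passed limma at an adjusted p under 0.05, 12.8% higher and 9.33% lower. Of 3290 genes of first bins in the fit, 669 were higher and 344 lower (30.8%). Of 57 genes whose first bin was used less, 32 were higher and 3 lower (61.4%), and their median log2 fold change was 1.15. Of 63 whose first bin was used more, 20 were higher and 4 lower (38.1%), with a median of 0.31. Exon use and gene level come from the same libraries and are not independent measurements. The share of higher calls depended on the scaling: 66.0% of the called genes of first bins were higher as deposited, 51.7% after quantile normalization and 52.4% after scaling to equal nuclear totals, which moved the median of all genes to -0.13.

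**Figure D5:**
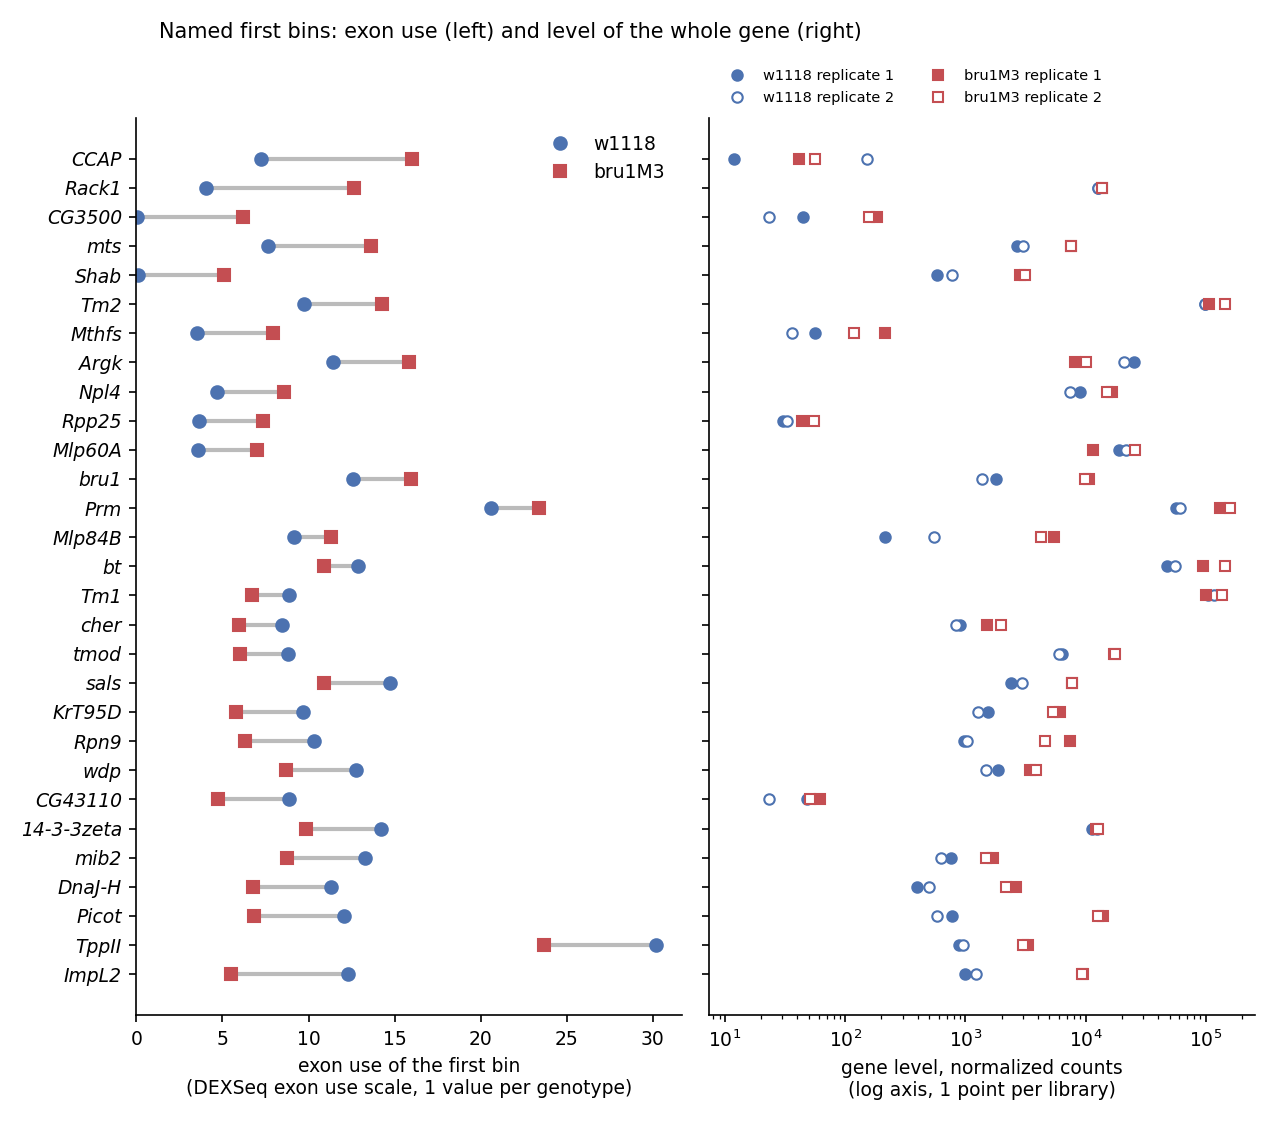
The 29 named first bins, ordered by change in use. The left panel gives exon use in w1118 (blue circles) and bru1M3 (red squares), with 1 fitted value per genotype and no replicate error, and the right panel the normalized counts of the whole gene in each of the 4 libraries on a log axis. The largest change in use is that of CCAP (8.78) and the largest fall that of ImpL2 (-6.81), whose gene level is higher in both bru1M3 libraries.

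In bulk tissue, fewer cells of a type and less RNA per cell cannot be told apart. No first bin of the marker lists for flight muscle (6 first bins), tubular muscle (4), photoreceptors (3), trachea (2), tendon (2), fat body (1) or gut (1) was past the threshold. All 9 flight muscle markers were read in every library and summed to between 1795000 and 2875000 normalized counts, with Act88F above 520361 in each. Summed tubular muscle markers were 6251 and 12180 in w1118 and 56100 and 28270 in bru1M3, of which Act57B alone made up 1023 and 4286 against 53651 and 24634, while Act79B, Act87E, TpnC41C and TpnC47D were at lower counts in both bru1M3 libraries than in either w1118 library. Summed gut markers were 8931 and 3634 against 1957 and 1220, but LManII among them went the other way, with 320 and 333 against 488 and 754. Blood cell markers summed to 1278 and 1034 against 492.7 and 634.4, and photoreceptor markers to 3725 and 215.8 against 19.79 and 323.8. Mitochondrial-genome transcripts took 72.6% and 63.7% of reads in w1118 and 41.2% and 29.0% in bru1M3. The part of these in the changes of first bins was not tested, and bin use could not be computed without single libraries.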

How the data were processed

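mRNA-Seq libraries of IFM from w1118 and bru1M3 (2 each) were used. The authors mapped reads with STAR 2.7.3a to BDGP6.22 (annotation dmel_r6.32), counted them with featureCounts (Subread 2.0.0) and deposited per gene a signal, namely counts divided by 1 DESeq2 size factor per library. For exon bins the authors deposited the mean signal and a DEXSeq exon use score per genotype. Their fold changes and p-values were not used, nor were 4 columns of library values whose names match no sample. Bins were joined to the BDGP6.54 annotation, on whose exon edges 99.94% of them begin and end.

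Genes were tested with limma 3.58.1 on log2(value + 1), bru1M3 against w1118, over the 9228 genes with at least 10 in at least 2 libraries, with Benjamini-Hochberg adjustment. Fold changes are on that scale and understate those of low genes. Dividing by the step of 1 read gave whole reads for 100% of values (tolerance 0.01), on which edgeR 4.0.16 and DESeq2 1.42.0 were run as alternatives. Scripts were tested on simulated data. An exact permutation test of 2 against 2 libraries cannot go below p = 0.333.

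Named were the 10 largest rises and 10 largest falls in use, the sarcomere genes past the threshold and bru1. Members, lists and tests were chosen with earlier results of these data known. Alternatives varied the minimum mean, the minimum number of bins, the percentile, the measure of change, the pseudocount, the filter, the scaling, the test, the replicate block, the p threshold and the libraries included. Counts of first bins centred on their median or without overlaps were added after seeing the data. Values of some overlapping genes are not reported here.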

Additional observations from a re-analysis of the deposited data

How the results depend on the processing

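Bin use has 1 value per genotype, so no replicate error stands behind a changed first bin. Nuclear reads were fewest in w1118 replicate 1. The number of changed first bins followed the minimum mean and the percentile, as both set how many bins are counted: 125 more and 95 less at a minimum mean of 20, 32 less at 100, 152 and 127 with no minimum, 166 and 114 at the 90th percentile, and 9 and 9 at the 99th. No bin table entry merges genes, so leaving out merged genes changed nothing.

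Of 101 alternative values for counts, medians and bru1, 84 kept within 1.5 times or their call. Quantile normalization gave 559 lower genes among those of first bins and 12 lower among those with a changed first bin, and the cause was not tested. At an adjusted p under 0.01 these were 440 higher and 98 lower, and 4 lower. With each library left out in turn, genes of first bins numbered 531 to 594 higher and 218 to 424 lower, those with a changed first bin 46 to 49 higher and 6 to 11 lower, and the log2 fold change of bru1 was 2.51 to 2.89. Fewest lower genes came without bru1M3 replicate 1 (218) and w1118 replicate 1 (219), most without bru1M3 replicate 2 (424).

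Signs turned for genes that limma did not call: CCAP (-0.04 with a pseudocount of 10, -0.81 in edgeR, -0.79 in DESeq2, and -1.65 to 1.92 with a library left out), Rack1 (-0.03), 14-3-3zeta (-0.06) and Tm1 (-0.05) under equal nuclear totals, Tm1 with a library left out (-0.14 to 0.30), and Mlp60A without bru1M3 replicate 1 (0.34). Mlp60A was called without bru1M3 replicate 2 (-0.83, adjusted p = 0.0101 in limma). The cause was not tested.

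Deviations of same-numbered libraries correlated at 0.0274 over 9228 genes. With only 2 pairs, this cannot exclude that the replicate numbers pair the libraries. With the replicate number as a block, 693 genes of first bins were higher and 371 lower.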
